A study of Caenorhabditis elegans with 12 samples.

Results

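The superoxide dismutase, catalase and metallothionein genes of *C. elegans* were followed in whole L3 larvae under strong and mild RNAi of *nuo-5*, the worm gene for NDUFS1, a core protein of complex I in the mitochondrial respiratory chain. They are 10 genes, chosen by name and with earlier results of these data known: *sod-1* to *sod-5*, *ctl-1* to *ctl-3*, *mtl-1* and *mtl-2*. All 10 have a probe set that carries exactly 1 gene symbol, out of 25478 genes with such a probe set on the array. Each of them is measured by 1 probe set only, so the brightest probe set per gene was also the only choice.

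Superoxide dismutases turn superoxide, a by-product of the respiratory chain, into hydrogen peroxide. Catalases break hydrogen peroxide down into water and oxygen. The dismutases differ in the place where they act and in their metal: SOD-1 and SOD-5 are cytosolic copper/zinc enzymes, SOD-2 and SOD-3 are manganese enzymes of the mitochondrial matrix, and SOD-4 is the extracellular copper/zinc form. CTL-2 is the main catalase of peroxisomes, and CTL-1 is cytosolic. Metallothioneins are small cysteine-rich proteins that bind zinc, copper and cadmium, and in the worm *mtl-2* is known as an intestinal gene, *mtl-1* as a gene of the pharynx and, when induced, of the intestine. *sod-3* and *mtl-1* are textbook targets of the FOXO factor DAF-16.

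Wild-type N2 larvae were fed bacteria that express double-stranded RNA and were kept at 20 °C. The 12 arrays hold 4 replicates (I, III, IV and V) of each of 3 groups: strong *nuo-5* RNAi, collected in the filial generation, mild *nuo-5* RNAi, collected in the parental generation, and larvae fed bacteria with the empty vector pL4440. Strength and generation change together between strong and mild RNAi and cannot be told apart, and the labels do not say which generation the control larvae belong to. The treatment text of the labels names lutein, or DMSO as its control, in the plates and does not give the choice for each sample. RNA of whole larvae was hybridized to Affymetrix *C. elegans* Gene arrays, and a level is the RMA log2 value of a probe set, so that 1 unit is a doubling. The p-values measure the spread between these replicates, and what a replicate number shares is not given. Levels of different probe sets are not comparable. Apart from a cut-off for dim values, each level, or mean level of a list, is set only against levels of the same gene or list. Genes are compared with each other by fold change, spread or correlation, not by level.

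The target of the RNAi was lower on every RNAi array. *nuo-5* had log2 values of 6.95, 7.09, 7.22 and 6.89 on the strong arrays, 7.15, 7.56, 7.25 and 7.66 on the mild arrays and 8.29, 8.56, 8.43 and 8.42 on the control arrays (replicates I, III, IV and V). Its level averaged 38.2% of control in strong RNAi and 49.2% in mild RNAi (limma, adjusted p = 0.000154 and 0.0471). In strong against mild RNAi its log2 fold change was −0.37 and did not pass (adjusted p = 0.118), nor did the two-sided exact permutation test (p = 0.0571). The call in mild RNAi against control was kept in 5 of 24 alternative settings and lost with the replicate number as a block (adjusted p = 0.152). The two-sided exact permutation test of 4 against 4 arrays gave p = 0.0286 for each comparison with control, the smallest it allows. Array medians lay between 3.41 and 3.57, arrays of 1 group correlated at 0.960 to 0.981 in strong RNAi, 0.978 to 0.983 in mild RNAi and 0.975 to 0.985 in control, and 0 arrays repeated the values of another. Strong array III stands apart from the other strong arrays in adult, yolk and oocyte genes, so results of strong RNAi are also given with it as the only strong array.

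Under strong *nuo-5* RNAi 4 of the 10 genes rose against control and 0 fell: *mtl-1* (16.3-fold), *sod-4* (4.02-fold), *sod-3* (2.68-fold) and *mtl-2* (1.99-fold). They include the extracellular dismutase, 1 of the 2 mitochondrial dismutases and both metallothioneins, and no cytosolic dismutase and no catalase. A gene is called where its limma p, adjusted by Benjamini and Hochberg across the 29317 probe sets of the array, is under 0.05, by which rule 8.04% of all probe sets rose and 5.62% fell. The same 4 genes had every strong array above every control array, as did 9.39% of all probe sets, and 1 gene, *ctl-3*, had every strong array below every control array, as did 8.51%. The median log2 fold change of the 10 genes was 0.64, and that of all probe sets was −0.05. Under mild RNAi no gene of the 10 passed.

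**Figure D1:**
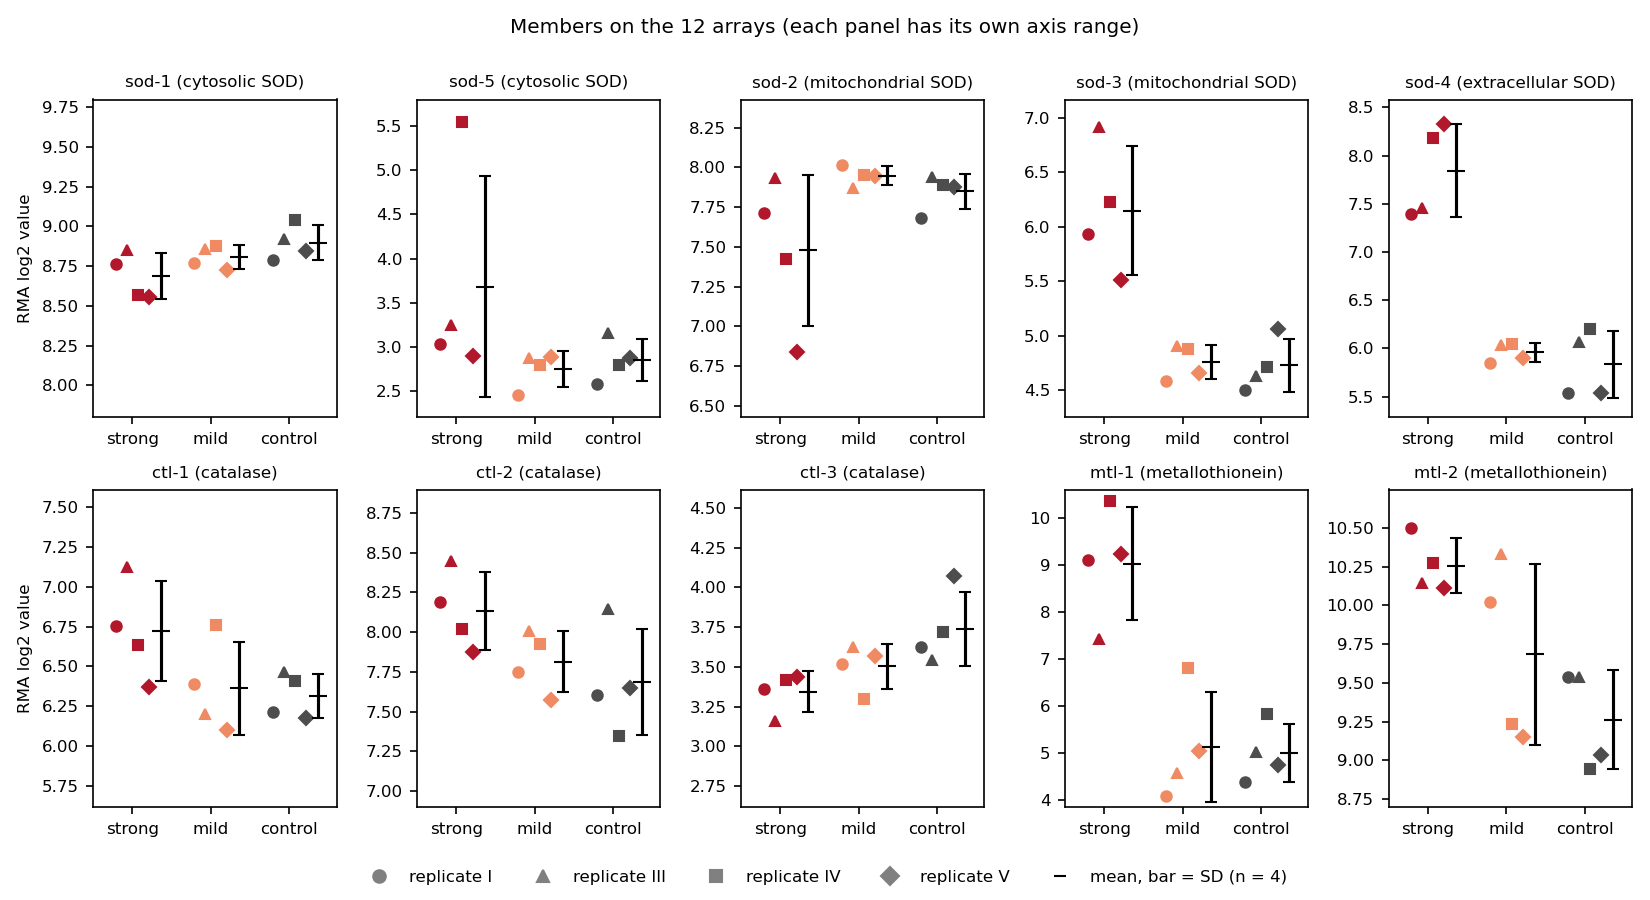
RMA log2 value (vertical axis, a range of its own in each panel) of the 10 genes on the 12 arrays, by group (horizontal axis: strong RNAi, mild RNAi, control). Symbols give the replicate, and the black bar gives the mean and SD of 4 arrays. The strong arrays of *sod-3*, *sod-4*, *mtl-1* and *mtl-2* lie above all control arrays, and those of *ctl-3* below them.

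The cytosolic dismutases did not pass in any comparison. *sod-1*, the main copper/zinc dismutase of the cytosol, had log2 values of 8.77, 8.85, 8.57 and 8.56 on the strong arrays, 8.77, 8.86, 8.88 and 8.72 on the mild arrays and 8.79, 8.92, 9.04 and 8.84 on the control arrays. The 3 groups overlap, and the SDs of 0.15, 0.07 and 0.11 were below the median SDs of all probe sets (0.23, 0.22 and 0.21 in strong RNAi, mild RNAi and control). Its log2 fold change was −0.21 in strong RNAi against control (95% interval −0.45 to 0.03, limma adjusted p = 0.243), −0.09 in mild RNAi against control (−0.33 to 0.15) and −0.12 in strong against mild RNAi (−0.36 to 0.12). A change of *sod-1* by more than 1 on the log2 scale is outside all 3 intervals.

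*sod-5*, the second cytosolic form, was dim. It had log2 values of 3.04, 3.25, 5.54 and 2.90 on the strong arrays, 2.46, 2.87, 2.80 and 2.89 on the mild arrays and 2.58, 3.16, 2.80 and 2.88 on the control arrays. The 40th percentile of all values is 3.01, and *sod-5* exceeded it on 3 strong, 0 mild and 1 control arrays. A single strong array, replicate IV, stood 2.69 above the control mean, while the other 3 strong arrays stood 0.18, 0.40 and 0.05 above it. The log2 fold change in strong RNAi against control was 0.83 (95% interval −0.15 to 1.82, limma adjusted p = 0.267), and it was 0.21 without strong array IV. Against mild RNAi every strong array was higher, with a log2 fold change of 0.93 (adjusted p = 0.237), and 0.31 without strong array IV.

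Of the 2 mitochondrial dismutases, *sod-3* rose under strong RNAi and *sod-2* did not pass. *sod-2*, the main manganese dismutase, had log2 values of 7.71, 7.93, 7.42 and 6.84 on the strong arrays, 8.02, 7.87, 7.95 and 7.95 on the mild arrays and 7.68, 7.94, 7.89 and 7.88 on the control arrays. Strong arrays IV and V were below all mild and control arrays, whereas strong arrays I and III were within the control range. The log2 fold change was −0.37 in strong RNAi against control (95% interval −0.79 to 0.04, limma adjusted p = 0.236) and −0.47 in strong against mild RNAi (−0.88 to −0.05, adjusted p = 0.150). Without strong array III, *sod-2* was called lower in strong than in mild RNAi (log2 fold change −0.62, adjusted p = 0.0383), the only setting of 24 in which it was called. Without strong array V the values were −0.16 against control and −0.26 against mild RNAi. With strong array III as the only strong array the value against control was 0.09.

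*sod-3*, the inducible manganese dismutase, had log2 values of 5.93, 6.92, 6.23 and 5.51 on the strong arrays, 4.59, 4.90, 4.88 and 4.66 on the mild arrays and 4.50, 4.63, 4.71 and 5.07 on the control arrays. Every strong array was above every mild and control array, and strong array III was the highest. *sod-3* rose by 1.42 on the log2 scale in strong RNAi against control (SE 0.24, 95% interval 0.89 to 1.95, limma adjusted p = 0.00317) and by 1.39 in strong against mild RNAi (SE 0.24, adjusted p = 0.00581). Both calls were kept in 24 of 24 alternative settings, with log2 fold changes of 1.16 to 1.63 against control and 1.13 to 1.60 against mild RNAi. With strong array III as the only strong array its log2 fold change was 2.19 against control and 2.17 against mild RNAi. Mild arrays did not stand above control arrays, with a log2 fold change of 0.03 (95% interval −0.50 to 0.56).

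*sod-4*, the extracellular copper/zinc dismutase, had the largest change of the 5 dismutases. It had log2 values of 7.40, 7.46, 8.18 and 8.33 on the strong arrays, 5.85, 6.03, 6.05 and 5.91 on the mild arrays and 5.54, 6.07, 6.20 and 5.53 on the control arrays. The lowest strong array (7.40) was above the highest control array (6.20), and strong arrays IV and V were higher than I and III. *sod-4* rose by 2.01 on the log2 scale in strong RNAi against control (SE 0.23, 95% interval 1.52 to 2.50, limma adjusted p = 0.000317), and by 1.88 in strong against mild RNAi (SE 0.23, adjusted p = 0.000775). Both calls were kept in 24 of 24 alternative settings. With strong array III alone the value was 1.62 against control and 1.50 against mild RNAi. In mild RNAi against control the log2 fold change was 0.12 (95% interval −0.37 to 0.62).

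**Figure D2:**
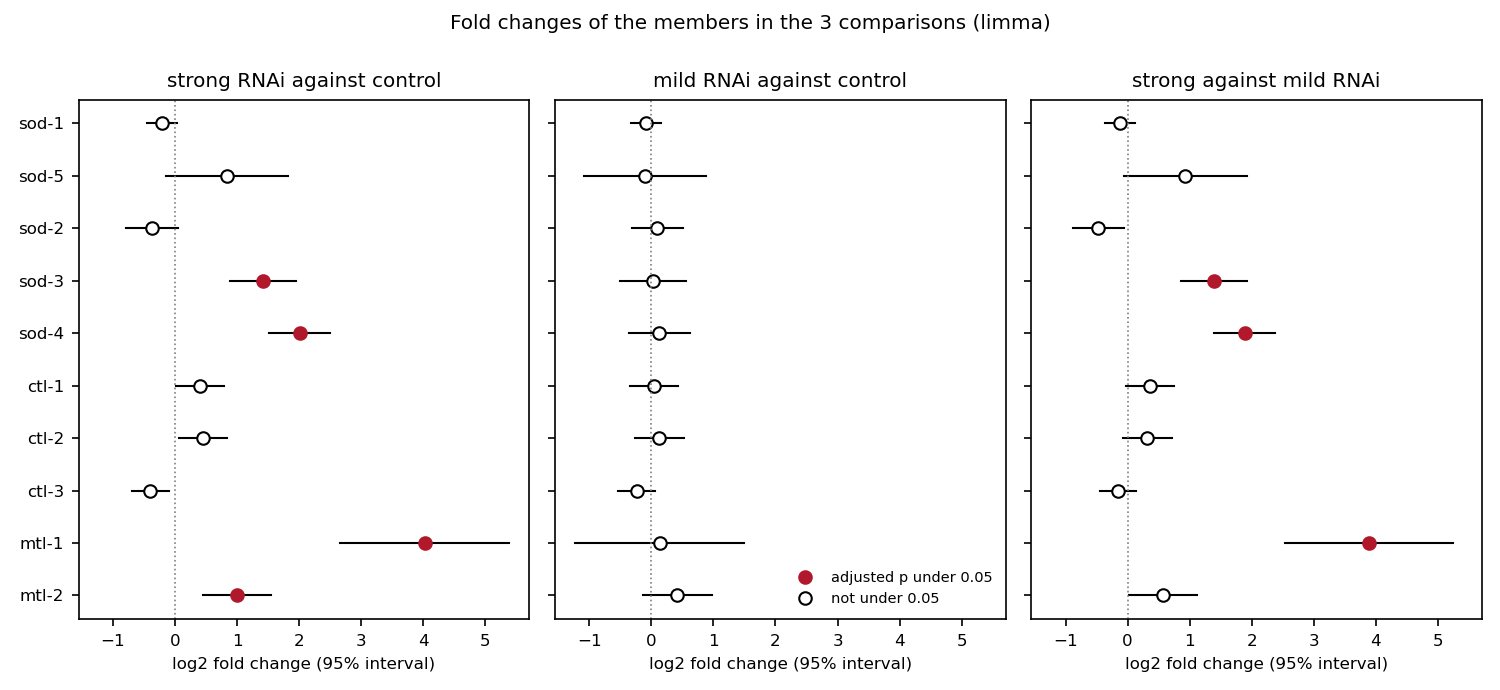
Log2 fold change of the 10 genes (horizontal axis) with its 95% interval from limma, in strong RNAi against control, mild RNAi against control and strong against mild RNAi. Filled points have an adjusted p under 0.05: 4 genes in the first panel, 0 in the second and 3 in the third.

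The 3 catalase genes lie next to each other in the genome, with 0 protein-coding genes between them in the RefSeq table of assembly WBcel235. *ctl-2*, the peroxisomal catalase, had log2 values of 8.19, 8.45, 8.02 and 7.88 on the strong arrays, 7.75, 8.005, 7.92 and 7.57 on the mild arrays and 7.60, 8.15, 7.35 and 7.65 on the control arrays. Its strong and control arrays overlap only through control array III, and the mild arrays overlap both. Replicate III gave the highest value in all 3 groups. The log2 fold change in strong RNAi against control was 0.45 (95% interval 0.06 to 0.84, limma adjusted p = 0.125), and without control array III it was 0.60 and passed (adjusted p = 0.0414). With the replicate number as a block it was 0.45 and did not pass (limma adjusted p = 0.0503).

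*ctl-1*, the catalase of the cytosol, had log2 values of 6.76, 7.12, 6.63 and 6.37 on the strong arrays, 6.39, 6.20, 6.76 and 6.10 on the mild arrays and 6.21, 6.46, 6.41 and 6.18 on the control arrays. Strong array V was within the control range, and replicate V was the lowest in all 3 groups. The log2 fold change in strong RNAi against control was 0.41 (95% interval 0.02 to 0.79, adjusted p = 0.159). For *ctl-1* and *ctl-2* the interval excludes 0 before the adjustment over all probe sets, and neither is called after it.

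*ctl-3*, the third catalase gene, had a negative log2 fold change in all 3 comparisons. It had log2 values of 3.36, 3.16, 3.42 and 3.44 on the strong arrays, 3.52, 3.63, 3.30 and 3.57 on the mild arrays and 3.63, 3.54, 3.72 and 4.07 on the control arrays. These values were above the cut-off for dim values (3.01) on every array, but those of the strong arrays, 3.16 to 3.44, were close to it. All strong arrays were below all control arrays, and the mild arrays overlapped both. The log2 fold change in strong RNAi against control was −0.40 (SE 0.14, 95% interval −0.69 to −0.10, limma adjusted p = 0.0728). It passed after a further quantile normalization (−0.45, adjusted p = 0.0450) and after centring on array medians (−0.44, adjusted p = 0.0486). These are the 2 scalings that were tried, and in the other 22 alternatives it did not pass.

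The metallothionein *mtl-1* had the largest change of the 10 genes, and in mild RNAi and control it also varied most of them between replicates. It had log2 values of 9.09, 7.43, 10.35 and 9.22 on the strong arrays, 4.10, 4.58, 6.80 and 5.05 on the mild arrays and 4.38, 5.03, 5.83 and 4.76 on the control arrays. The lowest strong array (III) was above the highest mild array (IV), and replicate IV gave the highest value in all 3 groups. The SDs were 1.20 in strong RNAi, 1.18 in mild RNAi and 0.61 in control. *mtl-1* rose by 4.02 on the log2 scale in strong RNAi against control (SE 0.63, 95% interval 2.66 to 5.38, limma adjusted p = 0.00192), rank 18 among all probe sets by this value. In strong against mild RNAi it rose by 3.89 (SE 0.63, adjusted p = 0.00406), and both calls were kept in 24 of 24 alternative settings. In mild RNAi against control the log2 fold change was 0.13, with a 95% interval of −1.23 to 1.49 that allows a change of more than 1 in either direction.

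*mtl-2*, the second metallothionein, had log2 values of 10.50, 10.14, 10.27 and 10.11 on the strong arrays, 10.02, 10.33, 9.24 and 9.15 on the mild arrays and 9.54, 9.54, 8.95 and 9.03 on the control arrays. The strong arrays were close together and above all control arrays, while the mild arrays split into a higher pair (I and III, above all control arrays) and a lower pair (IV and V, within the control range). *mtl-2* rose by 0.99 on the log2 scale in strong RNAi against control (SE 0.25, 95% interval 0.44 to 1.54, limma adjusted p = 0.0216). This call was lost without strong array IV (adjusted p = 0.0544), control array IV (0.0614) or control array V (0.0640), and without moderation of the variances (0.0566). Against mild RNAi the log2 fold change was 0.57 (95% interval 0.02 to 1.12, adjusted p = 0.189). In mild RNAi against control it was 0.42 (−0.13 to 0.97), the largest value of the 10 genes in that comparison.

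**Figure D3:**
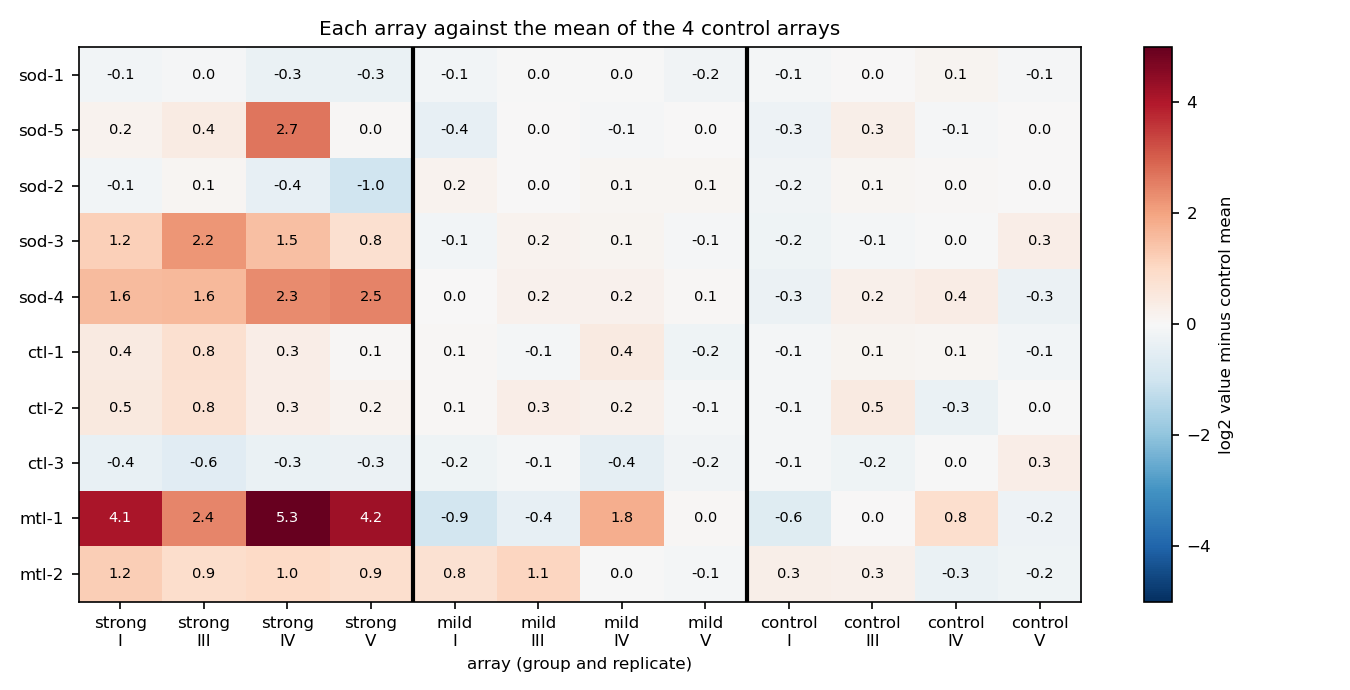
Log2 value of each gene (rows) on each array (columns, ordered strong, mild, control, replicates I, III, IV and V) minus the mean of the 4 control arrays of that gene. Red is above and blue below the control mean. The rows of *mtl-1*, *sod-4* and *sod-3* are red on all 4 strong arrays, and *sod-5* stands more than 1 above its control mean on strong array IV only.

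Genes of the same enzyme type were also compared with each other within arrays, as the difference between 2 genes' log2 fold changes. The 6 pairs were chosen after the values were seen. None of the differences passed after adjustment over 18 two-sided exact permutation tests, whose smallest adjusted p was 0.0857. The smallest exact p that this test allows is 0.0286. No difference could therefore pass the adjustment on its own, whatever its size, so the adjusted p cannot decide on a single pair. In strong RNAi against control the change of *sod-3* exceeded that of *sod-2* by 1.79 (SE 0.20, exact p = 0.0286, adjusted p = 0.0857) and the change of *mtl-1* exceeded that of *mtl-2* by 3.03 (SE 0.72, exact p = 0.0286, adjusted p = 0.0857). The change of *ctl-1* exceeded that of *ctl-3* by 0.80 (SE 0.28, exact p = 0.0286, adjusted p = 0.0857), and that of *ctl-2* did so by 0.84 (SE 0.30, exact p = 0.0857, adjusted p = 0.171). *ctl-1* and *ctl-2* differed by −0.04 (SE 0.16, exact p = 0.857). The change of *sod-5* exceeded that of *sod-1* by 1.04 (SE 0.67, exact p = 0.0286, adjusted p = 0.0857), and by 0.38 without strong array IV. In mild RNAi against control none of the 6 differences exceeded 0.37 in size, and their exact p ranged from 0.171 to 0.971.

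Of the 10 genes, 0 passed in limma in mild RNAi against control, in either direction, and 0 had an unadjusted p under 0.05. By the adjusted p 0.0136% of all probe sets rose and 0.00341% fell, and by the unadjusted p 1.84% and 1.5% did. A count of 0 is thus also the usual outcome for 10 genes. The log2 fold changes lay between −0.24 (*ctl-3*) and 0.42 (*mtl-2*). The widest intervals were those of *mtl-1* and *sod-5* (−1.09 to 0.88), and for the other 8 genes the 95% interval excludes a doubling and a halving.

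In strong against mild RNAi 3 of the 10 genes rose, *mtl-1*, *sod-4* and *sod-3*, and 0 fell, where 5.82% of all probe sets rose and 4.34% fell. The same 3 genes and *sod-5* had every strong array above every mild array, as did 6.98% of all probe sets. These 3 genes are also those called against control in every alternative setting. Both comparisons use the same strong arrays, so the second is no independent repeat of the first.

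Markers of stage and tissue also differed between the groups, and their part in these results was not tested. In whole larvae, fewer cells of a type and less RNA per cell cannot be told apart. Of 14 adult, yolk and oocyte markers measured, 9 rose in strong RNAi against control and 0 fell. Over all probe sets 8.04% rose and 5.62% fell, shares that also stand beside the counts of the lists below. Strong arrays I, III, IV and V had mean log2 values of 7.51, 4.51, 8.44 and 7.01 over these genes, mild arrays lay between 4.24 and 4.46, and control arrays between 4.16 and 4.62. The mean of these markers on strong array III was thus within the control range, but single markers differed. For *vit-2*, *vit-5*, *vit-6*, *col-19*, *cpg-3*, *rme-2* and *perm-4* every strong array was above every control array. The lowest strong and highest control values were 3.89 and 3.88 for *vit-2*, and 3.73 and 2.78 for *vit-5*. For *vit-1*, *cbd-1* and *egg-1* the lowest strong value was below every control array. On strong array III *sod-3*, *sod-4*, *mtl-1* and *mtl-2* stood 2.19, 1.62, 2.43 and 0.88 above their control means. With it as the only strong array, the spread is taken from the other groups, so no call is read from that fit. *sod-3* was highest on this array and *mtl-1* lowest of the strong arrays.

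Few intestinal markers passed. Of 11 measured, 2 rose in strong RNAi against control, 0 fell and 9 did not pass, where 8.04% of all probe sets rose. The 2 were the GATA factor gene *elt-2* (log2 fold change 1.57, limma adjusted p = 0.00215) and the proton pump subunit gene *vha-6* (0.82, adjusted p = 0.0380). The median of the list was 0.33. The count that rose was 1 where any 1 of the 4 strong arrays, or control array IV or V, was left out. It was 3 without mild array III and 5 in the fit with the replicate block. Over the 11 genes the strong arrays averaged between 8.83 and 8.94. The mild arrays averaged 8.65, 8.66, 8.21 and 8.34, and the control arrays 8.63, 8.66, 8.01 and 8.41 (replicates I, III, IV and V). Arrays I and III were thus above IV and V in both mild and control larvae, as they were for *mtl-2*, whereas *mtl-1* was highest on array IV. Of 13 larval tissue markers 1 rose, the pharyngeal factor gene *pha-4* (0.63), and 3 fell, the P granule genes *glh-1* (−1.21) and *pgl-1* (−0.74) and the cuticle collagen gene *rol-6* (−1.19). The count that rose was 2 without strong array I or III or control array IV and 0 without strong array IV or V, and the count that fell was 5 without strong array III. The mean of these 13 genes lay between 7.24 and 7.46 in strong RNAi, between 7.54 and 7.68 in mild RNAi and between 7.55 and 7.66 in control. The list covers several tissues, and its other markers, none of them called, went both ways. Strong and control means were 8.66 and 8.94 for *myo-2* and 3.07 and 2.92 for *ceh-22* (pharynx). They were 6.85 and 8.22 for *dpy-7* and 6.73 and 6.41 for *elt-3* (hypodermis). The neuronal *rab-3*, *snb-1* and *unc-31* had higher means in strong RNAi, and the muscle genes *myo-3* and *unc-54* lower ones.

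**Figure D4:**
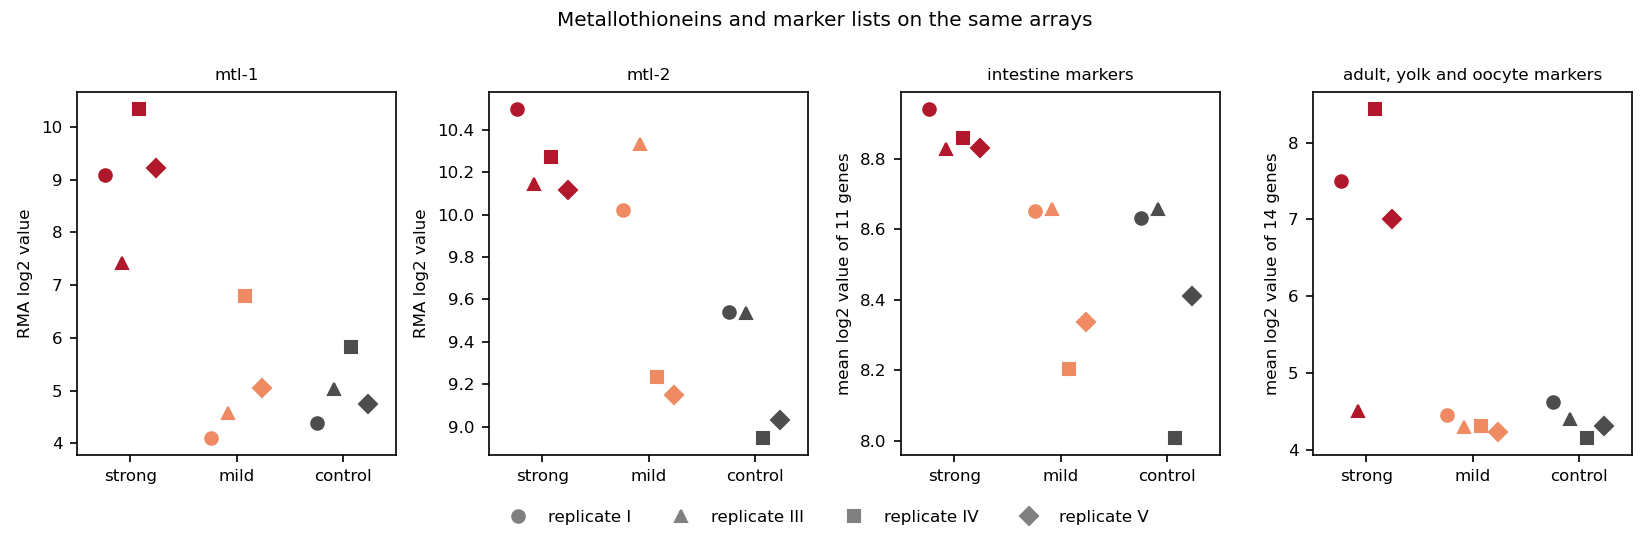
RMA log2 values of *mtl-1* and *mtl-2* and the mean log2 value of 11 intestine markers and of 14 adult, yolk and oocyte markers (vertical axes) on the same 12 arrays, by group, with symbols for replicates. Mild and control arrays I and III (circles and triangles) lie above IV and V for *mtl-2* and the intestine markers. The mean of the adult markers on strong array III lies within the control range.

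Some other genes of metal handling also rose. Of 27 measured, 7 rose in strong RNAi against control, 0 fell and 20 did not pass, where 8.04% of all probe sets rose. The median log2 fold change was 0.14. The count that rose was 5 without strong array IV and between 3 and 8 over all settings. *cdr-4* and *cdr-2*, genes of the cadmium-responsive family, rose by 2.57 and 2.31 (limma adjusted p = 0.000188 and 0.000365), and *ftn-1*, a ferritin gene that stores iron, and *pcs-1*, the phytochelatin synthase gene, rose by 1.12 and 1.11 (adjusted p = 0.0130 and 0.00280). The other 3 were the zinc transporter genes *ttm-1*, *zipt-2.1* and *cdf-1* (0.68, 0.68 and 0.64). *hizr-1*, which encodes the nuclear receptor that senses zinc, had a log2 fold change of 0.52 (adjusted p = 0.164).

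*cdr-4* had log2 values of 11.78, 11.75, 10.95 and 11.08 on the strong arrays, 10.58, 10.36, 10.07 and 9.35 on the mild arrays and 9.09, 8.87, 8.58 and 8.75 on the control arrays. The 3 groups do not overlap, whereas the mild and control arrays of *mtl-1* do. In mild RNAi against control its log2 fold change was 1.27 and that of *cdr-2* was 1.26. Neither passed the adjustment over all probe sets (limma adjusted p = 0.601 and 0.638, unadjusted p = 0.000390 and 0.000438). No gene of the metal handling list or of the lists below passed in mild RNAi against control.

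Most genes of the remaining peroxide and thiol enzymes did not pass. Of 27 peroxiredoxin, glutathione peroxidase, thioredoxin and glutathione genes, 1 rose in strong RNAi against control, the mitochondrial thioredoxin gene *trx-2* (log2 fold change 0.53, limma adjusted p = 0.0180). The 3 that fell were the thioredoxin family gene *trx-5* (−0.95, adjusted p = 0.00305), the glutathione peroxidase gene *gpx-1* (−0.62, adjusted p = 0.0187) and the glutathione synthetase gene *gss-1* (−0.49, adjusted p = 0.0171). The median of the list was −0.15, and without strong array III 6 of its genes fell. A list of 9 genes holds dual oxidases and heme peroxidases, which make or use hydrogen peroxide outside the cell. It also holds *memo-1*, *tsp-15* and *doxa-1*, which are not such enzymes. Of these 9 genes the peroxidase gene *skpo-1* (1.31) and *memo-1* (1.12) rose in strong RNAi against control and *skpo-2* (−1.26) fell. The count that rose was 1 where strong array I, IV or V or any 1 of the control arrays was left out. The count that fell was 0 where strong array IV or V, mild array I, IV or V or any 1 of the control arrays was left out. The catalytic subunit gene *bli-3* had a log2 fold change of −0.48 (adjusted p = 0.0985).

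Of 14 peroxisome genes, which make the organelle in which CTL-2 acts, *pmp-1*, a membrane transporter gene (1.47, limma adjusted p = 0.00789), and the import gene *prx-13* (0.44, adjusted p = 0.0146) rose in strong RNAi against control and 0 fell, with a median of 0.08. Without strong array III, mild array III or control array IV 1 gene of the list fell. *pmp-5* had the largest value of the list, −2.22, and did not pass (adjusted p = 0.0643).

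Of 14 DAF-16 targets other than the 10 genes, 4 rose in strong RNAi against control and 1 fell, with a median log2 fold change of 0.51. The transhydrogenase gene *nnt-1* (1.90), the small heat shock protein gene *sip-1* (1.87), the linker histone gene *hil-1* (1.72) and the ferritin gene *ftn-1*, also counted under metal handling, rose (limma adjusted p = 0.00170, 0.00790, 0.00300 and 0.0130). *dao-3* (−0.57, adjusted p = 0.0268) fell, and this call was lost without strong array IV or V or control array IV or V. The gene of the factor itself, *daf-16*, rose by 1.02 (adjusted p = 0.000465), and *skn-1*, which encodes the oxidative stress factor of the Nrf type, rose by 0.69 (adjusted p = 0.00947). *pmk-1*, a p38 kinase gene, had a value of 0.42 (adjusted p = 0.0544).

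**Figure D5:**
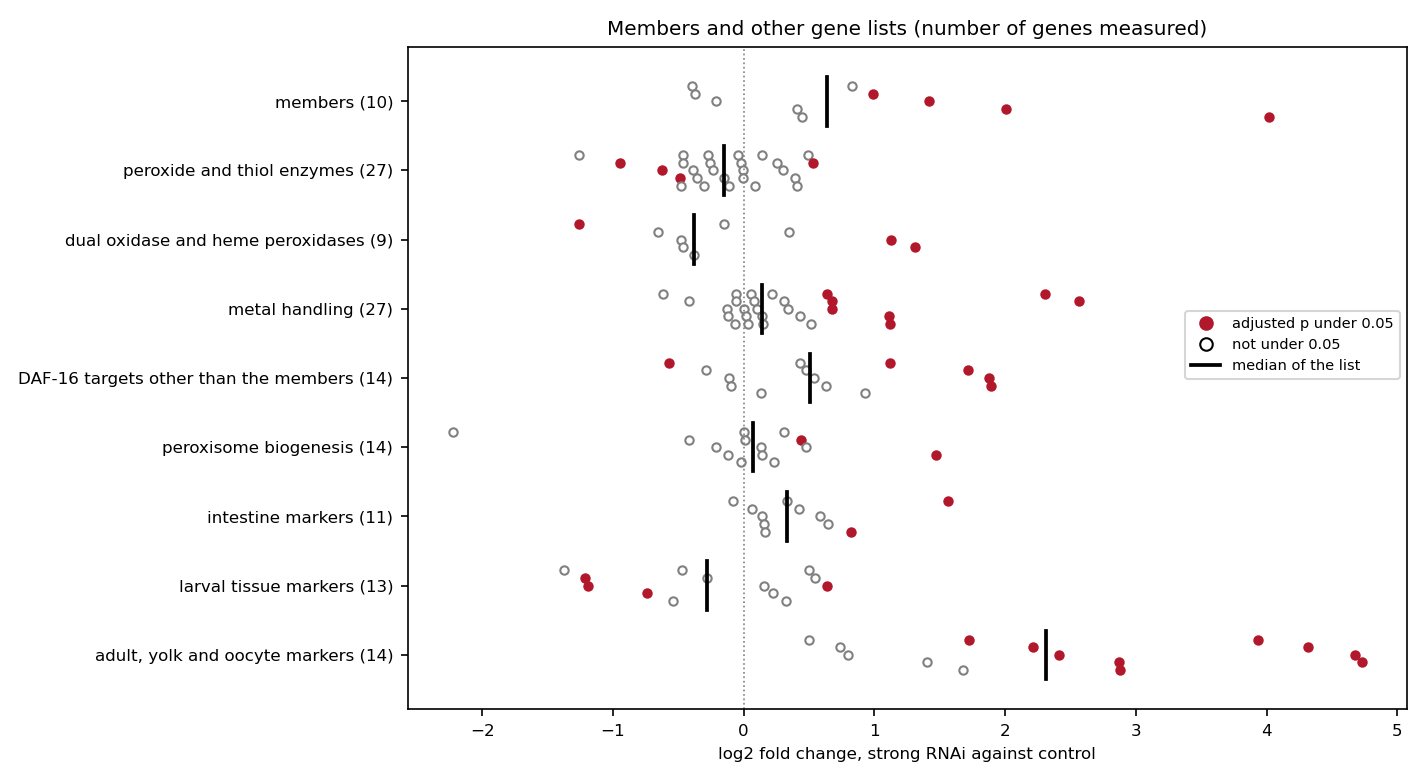
Log2 fold change in strong RNAi against control (horizontal axis) of the 10 genes (top row, called members) and of the genes of 8 other lists, 1 point per gene, with filled points for an adjusted p under 0.05 and a vertical bar at each list's median. The median is 0.64 for the 10 genes, 0.51 for the DAF-16 targets and 2.31 for the adult, yolk and oocyte markers.

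The genes whose log2 values ran most like those of the 4 called genes were taken by Pearson's r over the 12 arrays, as a description. All arrays of 1 group share their treatment, so such an r reflects group differences. For *sod-3* they were *nssp-90* (0.951), C15B12.4 (0.951) and *cror-2* (0.924), and for *sod-4* C25G4.2 (0.987), the neuropeptide gene *nlp-7* (0.984) and the transthyretin-related gene *ttr-23* (0.983). For *mtl-1* they were *ttr-23* (0.979), *srr-6* (0.976) and *pqn-88* (0.975), so *ttr-23* is on the lists of both *sod-4* and *mtl-1*. For *mtl-2* they were C46F11.5 (0.955), the gut granule gene *glo-3* (0.950) and M176.4 (0.944). C46F11.5 did not pass in strong RNAi against control (log2 fold change 0.66, limma adjusted p = 0.0564), and the other 10 genes named here rose.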

How the data were processed

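The methods and the labels name different versions of the Affymetrix Gene array. The authors made the deposited log2 values with RMA (background correction, quantile normalization between arrays, 1 value per probe set) and left out a replicate that differed from the rest. Of 29317 probe sets, with 0 missing values, the platform annotation gives 25546 exactly 1 symbol, 646 several and 3125 none.

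Each comparison is a contrast of 3 group means fitted over 12 arrays (R 4.3.3, limma 3.58.1, lmFit and eBayes). Pairs of genes, and *nuo-5* itself, were tested by exact two-sided permutation. The fit was tested on simulated data. Figures were drawn with matplotlib 3.10.9. Members and lists were chosen with earlier results of these data known. The text names all 10 members, *nuo-5*, 6 regulators, up to 4 called genes of a list by size of change and the 3 genes most like each called member. *hif-1*, *cdr-5*, *cdr-7*, *pmp-4*, *opt-2* and *vit-3* have no probe set with exactly 1 symbol and are not analysed here. *cdf-1*, *ttm-1*, *zipt-2.1*, *pmp-5*, *bli-3* and *dao-3* were named after their values were seen.

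Alternatives were a replicate block, a fit of 8 arrays, a second quantile normalization, median centring, a filter on dim probe sets (above the 40th percentile, 3.01, on 4 arrays or more), probe sets with 1 symbol only, the mean per gene, a robust intensity trend, unmoderated variances, array weights, a stricter p (0.01), a minimum log2 change of 1 and leaving out single arrays. Taking strong array III alone was an addition made with the values known. Replicate numbers are shared between groups in the labels. Over all probe sets, deviations from the group mean correlated between mild and control arrays of the same number (r = 0.34, 0.25, 0.27 and 0.20). Arrays of different numbers were not compared in this way, so these values alone do not show pairing. The replicate block was kept as an alternative, and the main fit has no block. The values between strong and control arrays (0.31, 6.78e-05, 0.08, 0.12) and between strong and mild arrays (0.23, 0.12, 0.04, 0.04) were not all above 0.1.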

Additional observations from a re-analysis of the deposited data

Results flagged for a closer look

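*sod-5* on strong array IV (log2 value 5.54) lay far from the other 3 strong arrays (2.90 to 3.25). Of the 30 sets of 4 arrays tested in this way (10 genes in 3 groups) this was the only 1 to stand out, and chance gives about 1 in 20. The mean of the adult, yolk and oocyte markers was also highest on strong array IV (8.44), and so was *mtl-1* (10.35). Their part in the value of *sod-5* was not tested.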

How the results depend on the processing

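The 10 genes were compared under 24 alternative settings in each of 3 comparisons, and 710 of 720 log2 fold changes stayed on their side of the threshold. Of the others 6 lost a call and 4 gained 1, and 0 called values changed sign. In strong RNAi against control the count of genes that fell was 1 in place of 0 (*ctl-3*) after a further quantile normalization and after centring on array medians. Leaving out each array in turn gave 3 to 5 genes that rose and 0 that fell in this comparison. In strong against mild RNAi it gave 0 to 1 genes that fell (*sod-2* without strong array III). With strong array III alone, the log2 fold changes against control were 2.19 for *sod-3*, 1.62 for *sod-4*, 2.43 for *mtl-1* and 0.88 for *mtl-2*. The 24 settings do not include that fit, and no call is read from it. *mtl-2* lost its call against control in 6 of 24 settings, among them an adjusted p under 0.01 and a required log2 change of 1 or more. With the replicate block 4 genes rose in strong RNAi against control and 3 in strong against mild RNAi, 0 passed in mild RNAi against control, and no call of the 10 genes changed, whereas the call of *nuo-5* in mild RNAi against control was lost (adjusted p = 0.152). With the block 5 intestine markers and 3 larval tissue markers rose in strong RNAi against control, in place of 2 and 1. Over all settings 3 to 8 genes of metal handling, 3 to 6 DAF-16 targets and 5 to 12 adult markers rose. Over the same settings 1023 to 3291 of all probe sets rose and 545 to 2621 fell in strong RNAi against control, in place of 2356 and 1649. In strong against mild RNAi 535 to 2398 rose and 243 to 1960 fell, in place of 1705 and 1271, and in mild RNAi against control 0 to 4 rose and 0 to 1 fell. The number of arrays limits the precision, most of all for *mtl-1* and *sod-5*.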
